A study of Mus musculus with 8 samples.

Results

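The 8 genes followed here carry cholesterol out of cells or control its uptake and synthesis in the colonic mucosa of mice with chemical colitis. They are Abca1, Abcg1, Abcg5, Abcg8 and Mylip, which are targets of the liver X receptors (LXR), and Hmgcs1, Sqle and Srebf2, which are targets of the sterol regulatory element-binding protein SREBP2. They were taken by symbol, and all 8 of 8 were found among the 17353 genes of the deposited tables. The genes were selected on measured values of these same libraries, their levels and differences between the groups, and which difference decided is not recorded. Their levels and changes are therefore given as a description, and nothing is supported with them.

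Polyadenylated RNA was sequenced from the colonic mucosa of wild-type (WT) male C57BL/6J mice on day 7, with 4 groups of 2 animals, 8 libraries in all. A Kuiyangling group drank 3% dextran sulfate sodium (DSS), which injures the colonic epithelium, and was given enemas of the herbal formula Kuiyangling at 10 g/kg. In the mesalazine group the same DSS was combined with enemas of the anti-inflammatory drug mesalazine at 50 mg/kg, and in the DSS model group with saline enemas. Control mice received saline enemas, and every enema had a volume of 0.2 ml. The labels do not give the age of the animals or whether animals shared a cage. The p-values measure only the spread between these samples.

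A cell balances its cholesterol through a pair of opposing programmes. When cholesterol derivatives (oxysterols) accumulate, the nuclear receptors LXRα and LXRβ switch on transporters that export cholesterol and a ligase that limits its uptake. When membrane cholesterol is low, SREBP2 is released from the endoplasmic reticulum and switches on the enzymes of synthesis and genes of uptake. In the intestine, the Abcg5 and Abcg8 proteins return absorbed sterols to the lumen, and epithelial renewal and macrophages both use these programmes.

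The libraries held 15560946 to 17843715 counts and 15217 to 15689 detected genes. Values are counts scaled to a common library size (CPM) with TMM, a normalization for library composition, and 3 counts, taken as the floor, correspond to 0.149 to 0.212 CPM. The epithelial marker Epcam stood at 2098 to 2942 CPM in all libraries. Some libraries stood apart: in mesalazine 1 the 102 ribosomal protein genes took 12.7% of counts, against 3.35% to 6.68% in the others, and the summed B cell markers were at 39.0 CPM in control 2, against 0.793 to 4.04 CPM in the others. Lower abundance of a transcript in such bulk samples can come from fewer cells of a type or from less RNA per cell, which cannot be told apart.

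RefSeq promoter sequences (GRCm38.p6) were at hand for 6 of 8 members, and 3 of these, Hmgcs1, Srebf2 and Abca1, hold letters of a known sterol or LXR element. The bases before the start of Hmgcs1 and Srebf2 are shown because they hold the core letters of the sterol regulatory element, TCACNCCA, in capitals. Those of Abca1 hold, read on the reverse strand, letters of an LXR element, GGTNA and GGTCA with any 5 bases between them, also in capitals. The stretch between the starts of Abcg5 and Abcg8 is shown because these genes are transcribed away from each other. Sequences run 5′ to 3′ on the strand named.
Hmgcs1, chr13:119690171-119690350, plus strand: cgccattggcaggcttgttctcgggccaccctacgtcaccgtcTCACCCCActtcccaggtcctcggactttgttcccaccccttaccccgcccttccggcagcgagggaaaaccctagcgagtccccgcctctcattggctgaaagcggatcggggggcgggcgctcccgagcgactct
Srebf2, chr15:82147089-82147268, plus strand: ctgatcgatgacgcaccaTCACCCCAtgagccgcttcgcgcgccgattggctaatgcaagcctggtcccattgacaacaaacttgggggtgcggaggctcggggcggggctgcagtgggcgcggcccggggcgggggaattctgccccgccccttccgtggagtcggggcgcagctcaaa
Abca1, chr4:53159896-53160015, minus strand: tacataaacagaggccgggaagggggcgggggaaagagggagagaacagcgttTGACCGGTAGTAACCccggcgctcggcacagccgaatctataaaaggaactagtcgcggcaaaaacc
Abcg5 and Abcg8, chr17:84683012-84683120, plus strand: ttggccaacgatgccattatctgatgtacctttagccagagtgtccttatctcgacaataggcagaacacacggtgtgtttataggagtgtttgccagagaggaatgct

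Counted from the start, with -1 the base before it, TCACNCCA begins at -137 in Hmgcs1 and at -162 in Srebf2, and the LXR letters at -67 in Abca1. Windows of 300 bases, 250 before and 50 after the start, were searched on both strands. Of 32851 such windows, 4.36% hold TCACNCCA and 0.207% hold the LXR letters. CCAAT, the box bound by NF-Y beside many sterol elements, is in 37.4% of windows and in those of Hmgcs1, Srebf2, Mylip, Abcg5 and Abcg8. The windows of Mylip, Abcg5 and Abcg8 hold neither TCACNCCA nor the LXR letters. The full sterol regulatory element, longer than its core, is in 0 of the 7 windows of members and in 0.234% of all windows. The motifs were chosen knowing these promoters, and a match is a description of letters, not of a site in use. The starts of Abcg5 and Abcg8 lie 109 bases apart, so that 209 bases of their windows are the same DNA.

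**Figure D1:**
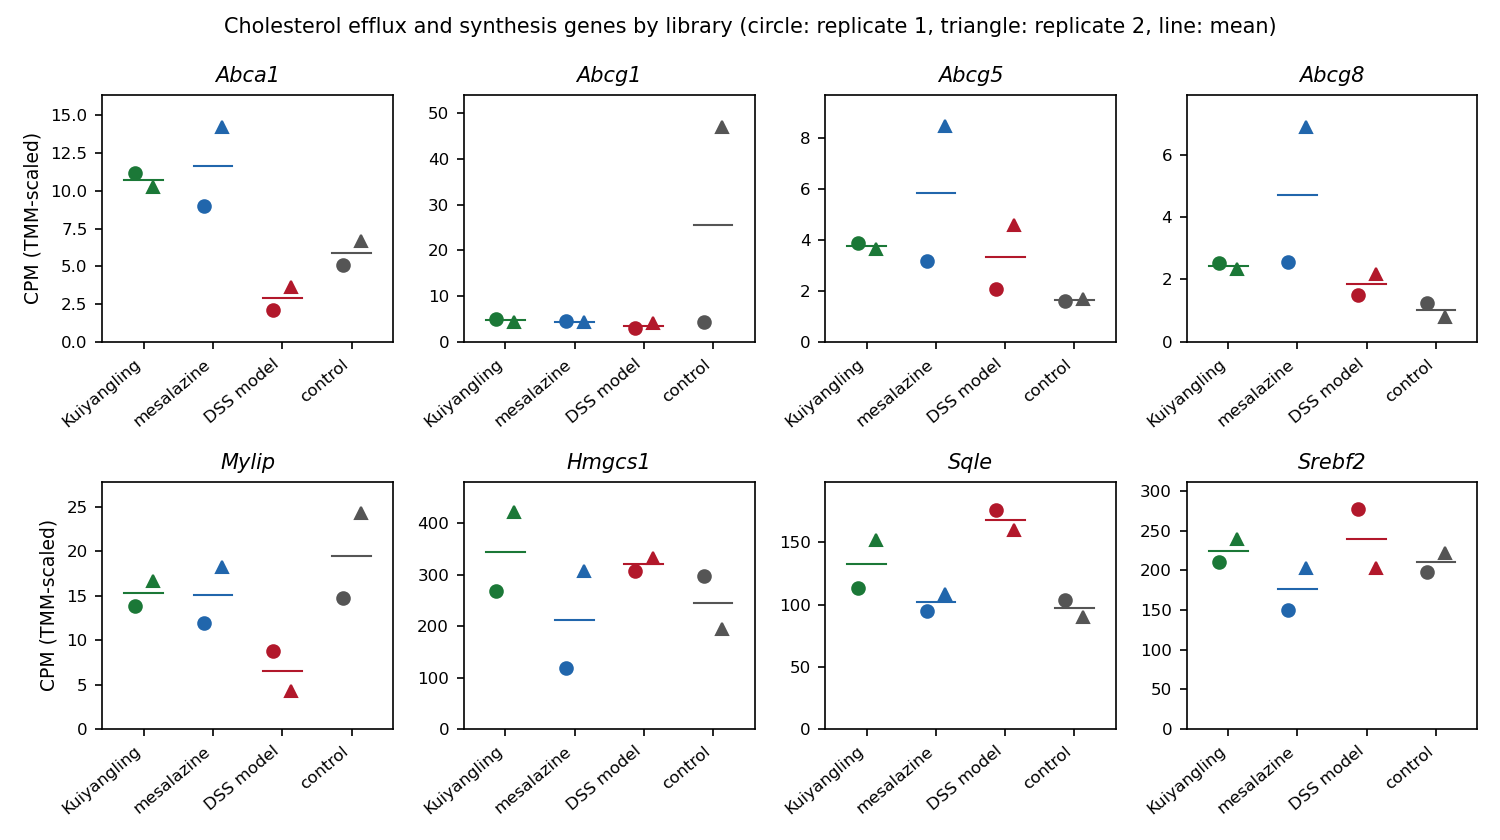
Level of each of the 8 genes in CPM (TMM-scaled, axes from 0) in the 4 groups, with 1 point per library (circle, replicate 1; triangle, replicate 2) and a line at the group mean. Abca1 and Mylip are lowest in the DSS model libraries, Abcg1 is high in control 2 alone, at 46.9 CPM, and Abcg5 and Abcg8 are highest in mesalazine 2.

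Abca1, the transporter that passes cholesterol to apolipoprotein A-I, had low values in the DSS model and higher ones with either treatment. It stood at 11.1 and 10.2 CPM in the Kuiyangling libraries, at 8.99 and 14.2 CPM in the mesalazine libraries, at 2.14 and 3.65 CPM in the DSS model libraries and at 5.05 and 6.66 CPM in the controls. All 4 treated libraries were above both controls, and both controls above both DSS model libraries, so that only the order of the treatments overlapped. The means were 10.7 ± 0.646 CPM with Kuiyangling, 11.6 ± 3.72 with mesalazine, 2.89 ± 1.07 in the DSS model and 5.86 ± 1.14 in controls (SD, n = 2 each). The log2 change against the DSS model was 1.88 with Kuiyangling (SE 0.40) and 2.01 with mesalazine (SE 0.40), and that of the DSS model against controls was -1.02 (SE 0.40). The changes with Kuiyangling and with mesalazine share the DSS model libraries.

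Mylip, also called IDOL, a ubiquitin ligase that limits the uptake of lipoprotein cholesterol, had the same order of the DSS model below the other groups. Its values were 13.9 and 16.7 CPM with Kuiyangling, 12.0 and 18.3 CPM with mesalazine, 8.74 and 4.31 CPM in the DSS model and 14.7 and 24.3 CPM in controls. Both DSS model libraries lay below the other 6 libraries, while the treated groups and controls overlapped. The log2 change was 1.23 with Kuiyangling (SE 0.41) and 1.21 with mesalazine (SE 0.41) against the DSS model, and -1.58 (SE 0.42) for the DSS model against controls. Without DSS model 1, the change with Kuiyangling was 1.83, that with mesalazine 1.81 and that of the DSS model against controls -2.17. Without DSS model 2 they were 0.80, 0.79 and -1.15.

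Abcg1, which moves cholesterol to high-density lipoprotein particles in macrophages and other cells, was between 3.02 and 5.01 CPM in every library but 1. It stood at 5.01 and 4.41 CPM with Kuiyangling, 4.46 and 4.26 CPM with mesalazine, 3.02 and 4.11 CPM in the DSS model, and 4.26 and 46.9 CPM in controls. Control 2 therefore sets the control mean of 25.6 ± 30.1 CPM (SD, n = 2). The log2 change of the DSS model against controls was -2.84 (SE 0.83), and it was -0.26 without control 2. Against controls, Kuiyangling was at -2.43 and mesalazine at -2.55, and these became 0.14 and 0.03 without control 2.

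The B cell marker list of 5 genes moved with Abcg1 in that library. Its sum was 1.92 and 2.86 CPM with Kuiyangling, 1.56 and 2.04 CPM with mesalazine, 1.07 and 4.04 CPM in the DSS model, and 0.793 and 39.0 CPM in controls. The part of these cells in the Abcg1 value was not tested.

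**Figure D2:**
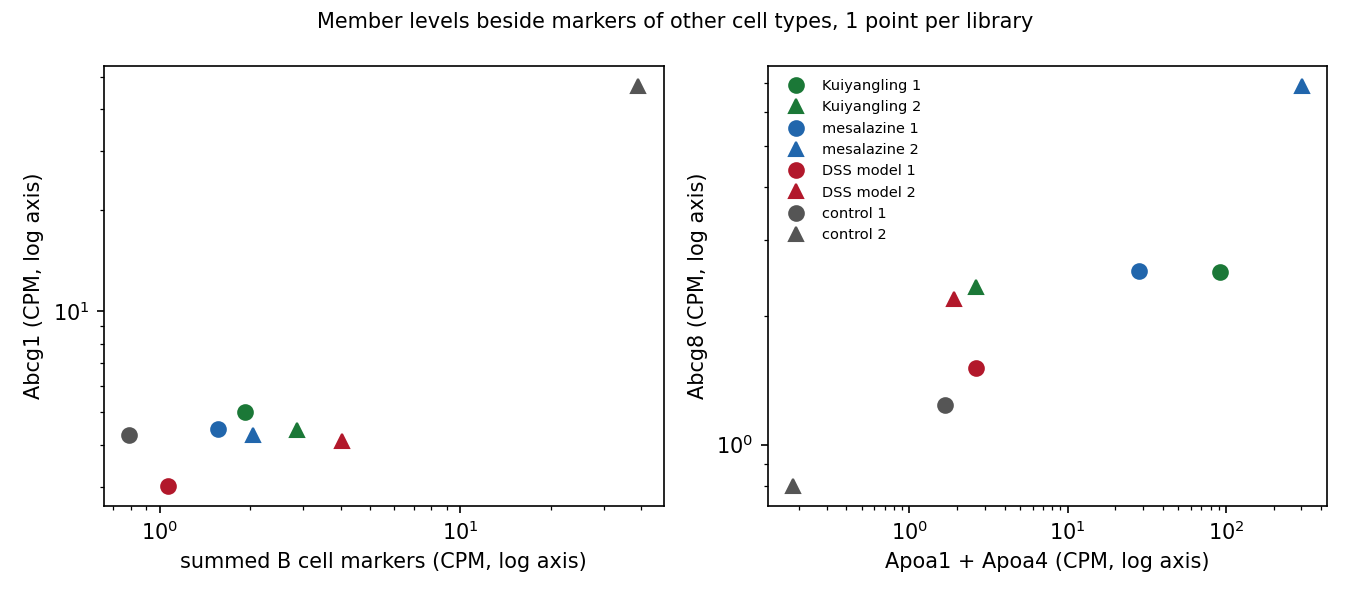
Abcg1 against the summed level of 5 B cell markers (left) and Abcg8 against the summed level of Apoa1 and Apoa4 (right), in CPM on log axes, 1 point per library, coloured by group. Control 2 lies alone at 39.0 CPM of B cell markers and 46.9 CPM of Abcg1, and mesalazine 2 has the highest Abcg8, at 6.89 CPM. Apoa1 and Apoa4 were picked from the list of 7 small intestinal enterocyte genes. The sum of that whole list did not follow Abcg8, at 946 and 888 CPM in controls, where Abcg8 was lowest, and 459 and 789 CPM in the DSS model.

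Abcg5 and Abcg8 encode the subunits of a transporter that works to export plant sterols and cholesterol. Abcg5 stood at 3.90 and 3.63 CPM with Kuiyangling, 3.18 and 8.46 CPM with mesalazine, 2.08 and 4.57 CPM in the DSS model and 1.59 and 1.66 CPM in controls. Abcg8 stood at 2.54 and 2.34 CPM with Kuiyangling, 2.55 and 6.89 CPM with mesalazine, 1.51 and 2.19 CPM in the DSS model and 1.24 and 0.802 CPM in controls. In CPM, all 6 libraries of mice given DSS were above both controls for either gene, and mesalazine 2 was the highest for both. In raw counts DSS model 1 and control 1 were at 24 and 25 for Abcg8 and at 33 and 32 for Abcg5. Their order for Abcg8 therefore rests on the scaling. These are low counts, from 13 to 118 for Abcg8.

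For mesalazine against controls the log2 changes of this pair were 1.84 (SE 0.56) for Abcg5 and 2.20 (SE 0.58) for Abcg8. For Kuiyangling against controls they were 1.21 (SE 0.56) and 1.24 (SE 0.58), and for the DSS model against controls 1.03 (SE 0.56) and 0.84 (SE 0.58). Against the DSS model, Kuiyangling was at 0.18 for Abcg5 and 0.40 for Abcg8, with overlapping libraries for Abcg5. The Abcg5 value was -0.28 without DSS model 1 and 0.85 without DSS model 2, and that of Abcg8 0.15 and 0.68. Without DSS model 2, the DSS model against controls was at 0.36 for Abcg5 and 0.56 for Abcg8. Mesalazine against the DSS model was at 0.81 and 1.35, which became -0.06 and 0.46 without mesalazine 2. Against controls, mesalazine without that library was at 0.97 for Abcg5 and 1.30 for Abcg8. Over the 8 libraries the log2 levels of the pair had a Pearson correlation of 0.944, a description in which they share library and depth. Per length, the FPKM of Abcg5 was 2.39 and 2.42 times that of Abcg8 with Kuiyangling, 1.94 and 1.91 times with mesalazine, 2.14 and 3.25 times in the DSS model and 1.99 and 3.23 times in controls.

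Of 7 genes of small intestinal enterocytes, Apoa1, Apoa4, Apob, Mttp and Sis (5 of 7) were highest in mesalazine 2, and Fabp2 and Lct were not. The summed list (Fabp2, Apoa1, Apoa4, Apob, Mttp, Lct and Sis) stood at 851 and 714 CPM with Kuiyangling, 865 and 1560 CPM with mesalazine, 459 and 789 CPM in the DSS model and 946 and 888 CPM in controls. Apoa1, an apolipoprotein of absorptive enterocytes and liver, was at 253 CPM in mesalazine 2 and 81.9 CPM in Kuiyangling 1, against 1.87 CPM in Kuiyangling 2. Apob was at 243 and 237 CPM and Sis at 19.2 and 20.0 CPM in these Kuiyangling libraries. Npc1l1, the sterol uptake channel of the enterocyte brush border, was at 9.04 and 3.32 CPM with Kuiyangling, 3.82 and 19.0 CPM with mesalazine, 0.566 and 1.19 CPM in the DSS model and 0.991 and 0.370 CPM in controls. The part of this cell type in the Abcg5 and Abcg8 values was not tested.

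Hmgcs1 encodes the cytosolic synthase that acts early in the mevalonate pathway, and Sqle the epoxidase that oxidises squalene early in the sterol branch. Sqle was highest in the DSS model, at 113 and 152 CPM with Kuiyangling, 94.9 and 109 CPM with mesalazine, 176 and 160 CPM in the DSS model and 104 and 89.8 CPM in controls. Both DSS model libraries were above all the others, and mesalazine and controls overlapped. The log2 change of the DSS model against controls was 0.80 (SE 0.27), that of mesalazine against the DSS model -0.73 (SE 0.27), that of Kuiyangling against the DSS model -0.35 (SE 0.26), and that of mesalazine against controls 0.07 (SE 0.26).

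Hmgcs1 differed widely between the animals of a group, treated or control, except in the DSS model. It stood at 269 and 422 CPM with Kuiyangling, 118 and 307 CPM with mesalazine, 308 and 333 CPM in the DSS model and 297 and 194 CPM in controls. The DSS model libraries did not overlap with controls or with mesalazine, but the gap between DSS model 1 and mesalazine 2 was under 1 CPM. The log2 change of mesalazine against the DSS model was -0.59 (SE 0.44), -1.44 without mesalazine 2 and -0.07 without mesalazine 1. Kuiyangling against the DSS model was at 0.11 (SE 0.44), and -0.25 without Kuiyangling 2. Levels relative to the other libraries followed gene length in several libraries. The Spearman correlation across genes, which are not independent replicates, was -0.0195 and 0.385 with Kuiyangling, -0.534 and 0.284 with mesalazine, -0.0959 and -0.433 in the DSS model and 0.444 and 0.267 in controls. With a length trend removed from every library, Hmgcs1 was at -0.61 for mesalazine against the DSS model, and Abca1, with its long transcript, at 1.96 for mesalazine and 1.65 for Kuiyangling against the DSS model and -0.63 for the DSS model against controls.

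Srebf2 encodes SREBP2 itself and is also its own target. In fold terms its range over the 8 libraries was the narrowest of the members, from 150 CPM in mesalazine 1 to 277 CPM in DSS model 1. It was at 211 and 239 CPM with Kuiyangling, 150 and 203 CPM with mesalazine, 277 and 203 CPM in the DSS model and 198 and 222 CPM in controls. Every group given DSS overlapped with controls, and mesalazine 2 was below DSS model 2 by less than 1 CPM. Of the 6 comparisons, mesalazine against the DSS model had the log2 change farthest from 0, at -0.44 (SE 0.29).

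Per length, the SREBP2 targets among the members were more abundant than the LXR targets among them. Hmgcs1 ranged from 24.4 to 114 FPKM (fragments scaled by transcript length and library total), Sqle from 28.8 to 60.3 and Srebf2 from 22.2 to 46.5. Mylip ranged from 1.39 to 8.16 FPKM, Abcg1 from 0.487 to 8.13, Abcg5 from 0.697 to 3.66, Abcg8 from 0.216 to 1.92 and Abca1 from 0.193 to 1.43. The lowest value of these SREBP2 targets lay above the highest of these LXR targets, while the ranges of the LXR targets overlapped. This order is that of the members only. Hsd17b7, another synthesis enzyme, ranged from 2.71 to 8.87 FPKM, and Smpdl3a, another LXR target, from 154 to 242 FPKM.

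**Figure D3:**
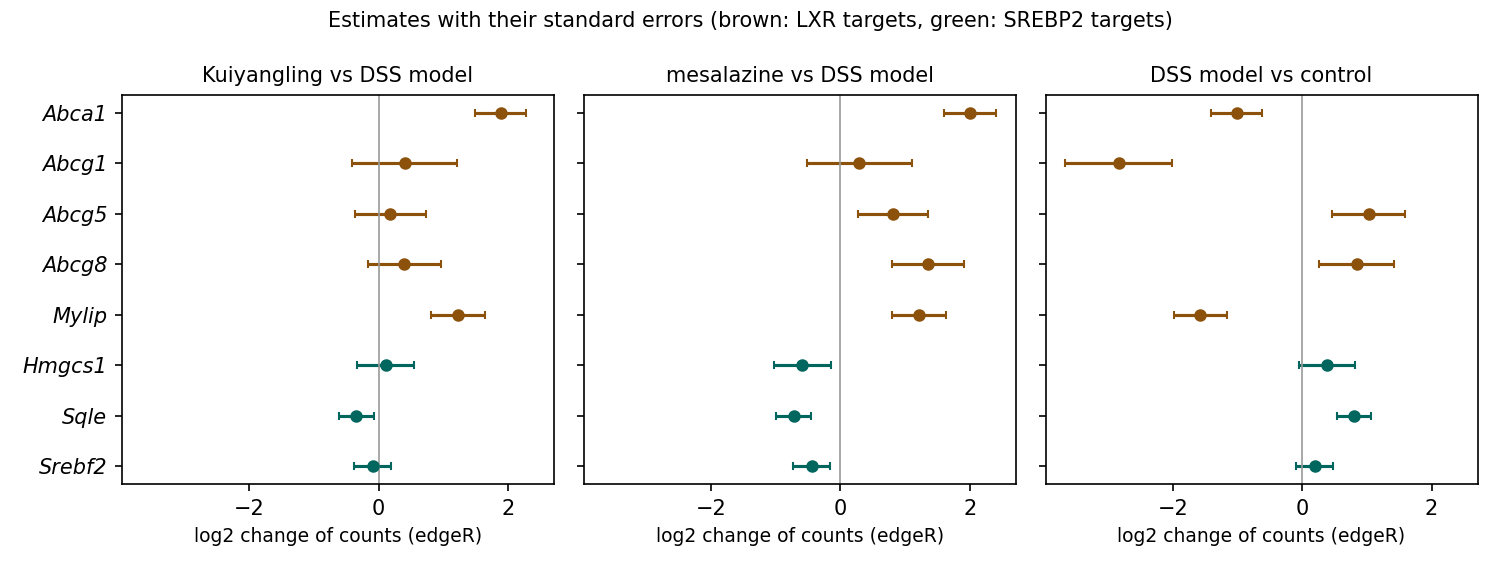
Log2 change of counts of the 8 genes with its standard error (edgeR), for Kuiyangling against the DSS model, mesalazine against the DSS model, and the DSS model against controls; brown, LXR targets; green, SREBP2 targets. All 5 LXR targets lie above 0 in both comparisons with the DSS model, with Abca1 at 1.88 and 2.01. Of the 13381 genes tested, 6727 and 7267 lie above 0 in these comparisons. Abcg5 was at -0.28 for Kuiyangling without DSS model 1 and at -0.06 for mesalazine without mesalazine 2. Abca1, Abcg1 and Mylip lie below 0 in the DSS model against controls, where Abcg1 was at -0.26 without control 2.

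All 8 genes passed the filter on low counts, among 13381 genes tested together with edgeR's quasi-likelihood test. At 0.05, after Benjamini-Hochberg adjustment over all genes, edgeR called no member. The counts were 0 of 8 in each of the 6 comparisons. Over all genes the share called was 0.247% for the DSS model against controls, 0.239% for Kuiyangling and 0.673% for mesalazine against controls, and 0% in the other comparisons. At an unadjusted p under 0.05 there were 4 members for the DSS model against controls (14.8% of all genes), 2 for Kuiyangling (3.56%) and 4 for mesalazine (5.49%) against the DSS model, 2 for Kuiyangling (10.3%) and 4 for mesalazine (20%) against controls, and 0 between the treatments (1.9%).

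DESeq2 was run as another tool and without the filter on low counts. Its shares are of the genes to which it gave an adjusted p, 11970 to 17353 by comparison. It called some members at an adjusted p under 0.05. These were Abca1 for Kuiyangling and for mesalazine against the DSS model (adjusted p = 0.0402 and 0.00375; 0.0749% and 0.76% of genes called), and Abcg1 and Mylip for the DSS model against controls (0.00388 and 0.0211; 3.11%). They were Abcg1 for Kuiyangling against controls (0.0201; 2.56%) and Abcg1, Abcg5 and Abcg8 for mesalazine against controls (0.00659, 0.0359 and 0.0147; 7.19%). Since the genes were chosen with these groups in view, these shares are printed beside the counts and nothing is read from them. The control mean of Abcg1 is set by control 2. Without that library its edgeR log2 changes against controls were -0.26 for the DSS model, 0.14 for Kuiyangling and 0.03 for mesalazine.

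The libraries of 2 groups can also be compared by whether they overlap. In Kuiyangling against the DSS model, both libraries were above both for Abca1, Abcg1, Abcg8 and Mylip (4 of 8; 21.9% of all genes) and below both for Sqle (1 of 8; 21.1%). In mesalazine against the DSS model, Abca1, Abcg1, Abcg8 and Mylip were above (4 of 8; 14% of all genes) and Hmgcs1, Srebf2 and Sqle below (3 of 8; 13.8%). In the DSS model against controls, Abcg5, Abcg8, Hmgcs1 and Sqle were above (4 of 8; 27.1% of all genes) and Abca1, Abcg1 and Mylip below (3 of 8; 26.3%). Against controls, Abca1, Abcg5, Abcg8 and Sqle were above with Kuiyangling (4 of 8; 25.9%) and Abca1, Abcg5 and Abcg8 with mesalazine (3 of 8; 23.6%), and 0 of 8 were below with either (23.2% and 22.1%). For 4 of the 8 members all 4 treated libraries were above both DSS model libraries, as for 7.53% of all genes. Between Kuiyangling and mesalazine, Srebf2 and Sqle were above (2 of 8; 10.6%) and Abcg8 below (1 of 8; 11.6%). The log2 change of Kuiyangling against mesalazine was -0.12 for Abca1 (95% interval -0.96 to 0.71), 0.02 for Mylip (-0.88 to 0.91) and 0.38 for Sqle (-0.21 to 0.97), so these libraries leave room for differences of either sign.

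The other genes of the pathway were taken from lists of 65 entries, of which 63 passed the filter on low counts (Srebf1 stands in 2 lists), and 0 were called by edgeR in any of the 6 comparisons. At an unadjusted p under 0.05 there were 21 for the DSS model against controls (14.8% of all genes), 13 for Kuiyangling (10.3%) and 11 for mesalazine (20%) against controls, 3 for Kuiyangling (3.56%) and 7 for mesalazine (5.49%) against the DSS model, and 2 between the treatments (1.9%). In the same order DESeq2 called 6, 1, 3, 0, 1 and 0. Of the genes to which it gave an adjusted p, it called 3.11%, 2.56%, 7.19%, 0.0749%, 0.76% and 0%.

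Cholesterol synthesis enzymes other than Hmgcs1 and Sqle had higher estimates in the DSS model. All 18 of 18 log2 changes against controls were above 0, with a median of 0.68, against -0.04 over all genes tested, of which 6352 of 13381 were above 0. None was called by edgeR (0.247% of all genes), and 9 had an unadjusted p under 0.05 (14.8% of all genes). DESeq2 called Fdft1, Msmo1 and Mvd (3.11% of the genes to which it gave an adjusted p). Mvd, the decarboxylase of the mevalonate pathway, had the smallest p and stood at 50.8 and 74.1 CPM with Kuiyangling, 77.8 and 45.1 CPM with mesalazine, 96.2 and 90.1 CPM in the DSS model and 39.1 and 34.1 CPM in controls (log2 change of the DSS model against controls 1.35, SE 0.33; edgeR adjusted p = 0.135).

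The enzymes summed to 1676 and 2165 CPM with Kuiyangling, 1713 and 1583 CPM with mesalazine, 2237 and 2210 CPM in the DSS model and 1435 and 1243 CPM in controls. Both DSS model libraries were the highest and both controls the lowest. Markers of other cell types also differed between these groups. The sum of 7 neutrophil markers was 9.04 and 6.49 CPM with Kuiyangling and 26.2 and 9.16 CPM with mesalazine. It was 28.7 and 52.1 CPM in the DSS model and 0.446 and 0.678 CPM in controls. Of the 6 that could be tested, edgeR called 3 in the DSS model against controls (0.247% of all genes). The sum of 6 fibroblast markers was 201 and 158 CPM with Kuiyangling and 143 and 82.2 CPM with mesalazine. It was 74.4 and 121 CPM in the DSS model and 31.5 and 10.2 CPM in controls. In the DSS model against controls edgeR called 0 of these markers, with 6 at an unadjusted p under 0.05 (14.8% of all genes). DESeq2 called 5 of them in that comparison (3.11%). Of 6 epithelial markers 0 were called by either tool there (0 at an unadjusted p under 0.05), with a sum of 15583 and 13310 CPM in the DSS model and 11390 and 13480 CPM in controls. The part of these cells in the enzyme values was not tested. Against controls, 18 of 18 estimates were above 0 for Kuiyangling (median 0.52, all genes -0.01) and 16 of 18 for mesalazine (0.33, all genes -0.01). Against the DSS model, 15 of 18 were below 0 for Kuiyangling (median -0.23, all genes 0.00) and 17 of 18 for mesalazine (-0.46, all genes 0.04). The smallest p of mesalazine against the DSS model was that of Dhcr7, the last reductase of synthesis, at -1.03 (SE 0.36; edgeR adjusted p = 0.678). Over the 15 alternative settings, 16 to 18 of the 18 were above 0 for the DSS model against controls, with a median of 0.49 to 0.80, while for mesalazine against controls the number was 12 to 17. Enzymes of 1 pathway share their control, so the count of 18 is not that of 18 separate observations.

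**Figure D4:**
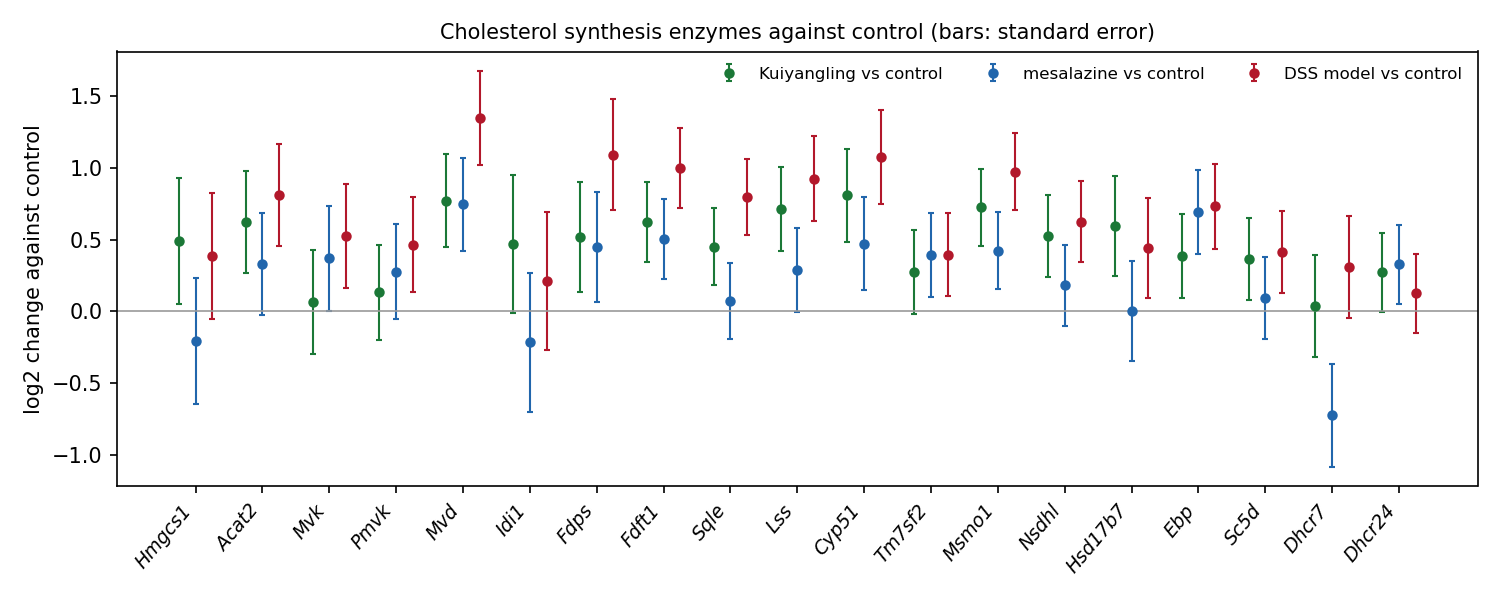
Log2 change against controls of Hmgcs1, Sqle and 17 other synthesis enzymes, with standard errors, for Kuiyangling (green), mesalazine (blue) and the DSS model (red). The DSS model estimates all lie above 0, with Mvd at 1.35, and the 3 groups share the 2 control libraries.

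All 6 other SREBP2 targets had estimates above 0 in the DSS model against controls (median 0.46). Over the alternative settings 4 to 6 of them were above 0. Npc1l1 was at 3.70 for mesalazine (SE 0.86; adjusted p = 0.503) and 2.80 for Kuiyangling (SE 0.85; adjusted p = 0.996) against the DSS model by edgeR, from few counts. DESeq2 called Npc1l1 for mesalazine against the DSS model and for either treatment against controls, but not for Kuiyangling against the DSS model. Insig1, the sterol-sensing anchor of SREBP2, was at 0.03 (SE 0.35) in the DSS model against controls, and Srebf1, the gene of the related factor of fatty acid synthesis, at 0.50 (SE 0.25). Insig2 had the smallest p of the processing genes, at 0.61 (SE 0.25; adjusted p = 0.302).

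The other LXR targets had estimates on both sides of 0. Of 11, 5 estimates were above 0 and 6 below in the DSS model against controls (median -0.01), 8 above and 3 below for Kuiyangling against the DSS model (0.20), and 5 above and 6 below for mesalazine against the DSS model (-0.17). Mlxipl, a carbohydrate-responsive transcription factor, had the smallest p of the list in all 3 comparisons, at 11.6 and 11.5 CPM with Kuiyangling, 13.2 and 13.1 CPM with mesalazine, 4.53 and 9.68 CPM in the DSS model and 17.6 and 22.5 CPM in controls. Its log2 change was -1.50 in the DSS model against controls (SE 0.37; edgeR adjusted p = 0.138; called by DESeq2), 0.70 for Kuiyangling and 0.89 for mesalazine against the DSS model. Mertk, a receptor for apoptotic cells, was at -0.81 in the DSS model against controls (SE 0.34; adjusted p = 0.310).

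The receptors themselves overlapped between the DSS model and each of the other groups. Nr1h2, the gene of LXRβ, stood at 97.7 and 79.2 CPM with Kuiyangling, 105 and 84.1 CPM with mesalazine, 95.2 and 90.9 CPM in the DSS model and 81.0 and 141 CPM in controls. Nr1h3, the gene of LXRα, stood at 19.0 and 14.2 CPM with Kuiyangling, 41.0 and 18.3 CPM with mesalazine, 18.6 and 22.0 CPM in the DSS model and 13.6 and 18.9 CPM in controls. The high value of Nr1h3 in mesalazine 1 came in the library with the highest sum of 10 macrophage markers. That sum was 119 and 109 CPM with Kuiyangling and 187 and 87.8 CPM with mesalazine. It was 155 and 156 CPM in the DSS model and 81.5 and 114 CPM in controls. C1qa, C1qb, C1qc, Mrc1 and Msr1 were highest in mesalazine 1, and Cd68, Adgre1, Csf1r, Cd14 and Lyz2 were not. The part of these cells in the Nr1h3 value was not tested. Of 7 receptors and partners, 1 estimate was above 0 and 6 below in the DSS model against controls (median -0.26), and the smallest p was that of the corepressor Ncor1, at -0.58 (SE 0.32; adjusted p = 0.399).

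Among genes of uptake, storage and trafficking, Npc1, which moves cholesterol out of lysosomes, was lowest in both DSS model libraries, at 67.3 and 54.5 CPM with Kuiyangling, 44.4 and 73.2 CPM with mesalazine, 34.1 and 29.0 CPM in the DSS model and 51.4 and 63.9 CPM in controls. Its log2 change was 0.95 for Kuiyangling (SE 0.31; edgeR adjusted p = 0.996) and 0.90 for mesalazine (SE 0.31; adjusted p = 0.669) against the DSS model. Gramd1a, a carrier of cholesterol from the plasma membrane, was at -2.09 in the DSS model against controls (SE 0.50; adjusted p = 0.133; called by DESeq2), and Msr1, a macrophage scavenger receptor, at 1.62 (SE 0.52; adjusted p = 0.218). Over the 13 genes the median was -0.27 in the DSS model against controls, 0.23 for Kuiyangling and 0.30 for mesalazine against the DSS model.

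Of 6 oxysterol genes 4 could be tested. Cyp27a1, which makes the LXR ligand 27-hydroxycholesterol, stood at 32.2 and 15.7 CPM with Kuiyangling, 59.7 and 35.2 CPM with mesalazine, 14.4 and 15.4 CPM in the DSS model and 10.5 and 25.4 CPM in controls. Its log2 change was 1.67 for mesalazine (SE 0.48; edgeR adjusted p = 0.544) and 0.69 for Kuiyangling (SE 0.47; adjusted p = 0.996) against the DSS model. Ch25h, which makes 25-hydroxycholesterol, was low, at 1.05 and 0.831 CPM with Kuiyangling, 1.06 and 0.350 CPM with mesalazine, 0.755 and 0.928 CPM in the DSS model and 0.0495 and 0.185 CPM in controls, of which both control values are at or under the floor of 3 counts.

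Genes whose pattern over the 8 libraries was most like that of a member were taken by Pearson correlation of log2 CPM among the 10196 genes whose mean level reached 5 CPM. Nearest to Abca1 were Cul1 (0.961), Stra6l (0.934), Per3 (0.933), Ddhd2 (0.927) and Gnpda2 (0.924). Per3, a gene of the circadian clock, stood at 26.6 and 23.6 CPM with Kuiyangling, 17.9 and 37.8 CPM with mesalazine, 9.50 and 8.22 CPM in the DSS model and 12.1 and 15.4 CPM in controls. Nearest to Hmgcs1 were Nab1 (0.982), Tmem68 (0.963), Hsd17b7 (0.961), Top1 (0.960) and Dhrs9 (0.958), of which Hsd17b7 is an enzyme of cholesterol synthesis. These are the highest of many correlations over 8 libraries that share depth and group, and they are descriptions.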

How the data were processed

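Colonic mucosa RNA of 8 mice was sequenced. Extraction used the mirVana kit and library preparation a stranded mRNA kit, per the labels' protocols. Trimmomatic and HISAT2 are named in the submitters' processing notes; for the genome build, annotation, counting tool and strand the entry is "not given in the sources used here". The deposited counts are whole reads per gene. Replicates of a group differed beyond counting noise and were kept as separate animals. The deposited FPKM values are these counts divided by 1 length per gene and the library total, as checked on the values. A column for mesalazine 2 was misspelled and was matched by its number.

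Genes passing filterByExpr by group (13381 of 17353) were scaled by TMM and fitted with edgeR 4.0.16 (R 4.3.3) in 1 model with 4 group means over the 8 libraries. Its quasi-likelihood tests were adjusted by Benjamini-Hochberg over all genes, with calls at an adjusted p under 0.05, and tested on simulated counts. Log2 CPM used a prior count of 2. The 8 members and all lists were chosen with earlier results of these data known. The named genes were the members, Nr1h2, Nr1h3, Insig1 and Srebf1, the genes of each list with the smallest p (some named by the rule are not reported here), and the 5 most correlated with Abca1 and with Hmgcs1; other genes named were chosen after their values were seen. Alternatives were RLE scaling, no filter, DESeq2 1.42.0, limma 3.58.1 on log2(FPKM + 0.1) and log2(FPKM + 1) of genes with at least 0.5 FPKM in 2 libraries, a replicate block, removal of a length trend per library, and leaving out each library. Floors of 3 counts cover counting error only, while the 95% intervals of log2 changes come from the edgeR fit and include the spread between animals. Promoters were taken from RefSeq (GRCm38.p6).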

Additional observations from a re-analysis of the deposited data

How the results depend on the processing

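The numbers of genes called are those for the DSS model, Kuiyangling and mesalazine against controls, where the reported counts are 33, 32 and 90, then for Kuiyangling and mesalazine against the DSS model and for Kuiyangling against mesalazine, where they are 0. With no filter on low counts edgeR called 487, 451, 1090, 11, 104 and 3 genes, and 2, 1, 3, 0, 1 and 0 members. DESeq2 called 435, 349, 982, 13, 91 and 0 genes, and 2, 1, 3, 1, 1 and 0 members. With limma on log2(FPKM + 0.1) the counts against controls were 29, 21 and 44, and on log2(FPKM + 1) they were 16, 2 and 35, with 0 elsewhere and 0 members. FPKM moved the median of all genes by -0.20 to 0.17, and on log2(FPKM + 1) Abca1 was at 0.72 for Kuiyangling and 0.69 for mesalazine against the DSS model. Removing a length trend gave 29, 37 and 37, and RLE scaling 33, 33 and 89. The cause of these differences was not tested. The labels state no pairing of animals by replicate number. Deviations from group means in same-numbered libraries had correlations of -0.311 to 0.162, which with 2 libraries per group cannot exclude a pairing. A replicate block gave 50, 65 and 132 genes and 0 members. Leaving out 1 library gave 1 to 159, 1 to 171 and 1 to 2717 genes against controls and 0 elsewhere. The lowest counts came without control 2, and for Kuiyangling also without Kuiyangling 1. The highest came without mesalazine 2, control 1 and mesalazine 2. Members called ranged from 0 to 1 against controls, the 1 being Abcg1 without control 1. A group left with 1 library was assumed to vary like the others. Of 720 recomputed member changes, 668 differed from the reported change by less than the SD between replicates of the compared groups, and 52 by more. That SD comes from groups of 2 and is wide for variable genes. A change of sign within it was not counted as moved, and some settings left out a library of neither compared group. These numbers are therefore not a measure of stability. Depth limits Abcg8, with 13 to 118 counts per library.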
